A study of Schizosaccharomyces pombe with 16 samples.

Results

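The 10 genes described here encode the core of the fission yeast cell cycle engine and its size control, namely *cdc2*, *cdc13*, *cig1*, *cig2*, *puc1*, *rum1*, *cdc25*, *wee1*, *cdr2* and *cdc18*. They were chosen by their systematic identifiers from the 7019 genes of the count table, and all 10 passed the expression filter. RNA-seq was performed on 16 libraries of ribosomal RNA-depleted total RNA, with 2 replicates in each of 8 groups. Wilmar-P is an h90 *Schizosaccharomyces pombe* isolate used for bioethanol production from molasses, and Wilmar-A is the h90 wild strain from which it was derived by repeated passage through molasses. Both isolates were grown in YES (rich medium) with 3% glycerol and no added glucose (glucose-starved), in YES with 3% glycerol and 0.1% glucose (glucose-deficient) and in YES with 3% glucose (glucose). Those cells had all been pre-grown in 3% glucose, washed and shifted for 4 hours at 32 degrees. Molasses cultures, kept on it for 4 hours, came from Wilmar-P and from the laboratory strain 972h-, which is h-. The labels number the 2 libraries of a group but do not say that they came from separate cultures, so the p-values measure the spread between such libraries, which may be technical. The Wilmar strains differ from the laboratory strain in sequence, and all reads counted here were aligned to the laboratory genome.

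Fission yeast drives its cell cycle with a single cyclin-dependent kinase, Cdc2, which is switched on by cyclins. Cdc13 is the mitotic B-type cyclin, Cig2 the main cyclin for entry into S phase, Cig1 a further B-type cyclin and Puc1 a cyclin linked to G1 and to exit from the cycle. Rum1 inhibits Cdc2 in G1. The Wee1 kinase holds Cdc2 inactive by phosphorylation and the Cdc25 phosphatase removes that phosphate, while Cdr2 is a cortical kinase that inhibits Wee1 as cells grow. Cdc18 licenses replication origins. The balance of Wee1 and Cdc25 sets the size at which a cell divides, and fission yeast divides at a smaller size when nutrients are poor. *cig2* and *cdc18* are textbook targets of MBF, a transcription factor that activates genes at the G1/S transition.

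Libraries held between 13246648 and 18164249 counts. Expression levels are given as CPM (counts scaled to library size, with edgeR's TMM factors) divided by the exonic length in kilobases (CPM per kb), so that genes can be compared. A gene was called differentially expressed when its log2 fold change exceeded 1 in either direction with an adjusted p-value below 0.05 in edgeR's quasi-likelihood test (Benjamini-Hochberg over 6662 tested genes). Fold changes come from that model, which also has a term for library type, so they can differ from the ratio of the printed levels. The glucose-repressed genes *fbp1* (gluconeogenesis) and *inv1* (invertase) followed the media labels. *fbp1* ranged from 212 to 569 CPM per kb in glucose-starved and from 168 to 417 in glucose-deficient libraries, against 2.98 to 11.2 in glucose, and *inv1* from 855 to 1709 and from 68.2 to 193, against 4.29 to 30.7. The first replicates of Wilmar-P glucose-deficient, Wilmar-A glucose-deficient and Wilmar-P glucose were labelled as unstranded libraries, and 8.44 to 8.60% of their counts fell on non-coding RNAs. Wilmar-A glucose replicate 1 was labelled stranded but had 8.76%, against 1.20 to 2.43% in the other 12 libraries. The sources used here do not say whether that library was counted by strand. It had 808 counts on SPNCRNA.1438, antisense to *cdc2*. The libraries labelled unstranded had 738 to 841, and the other 12 at most 17. By these counts it was like an unstranded library. The main fit kept its label, and fitting it as unstranded was 1 of the alternatives. The other 12 are called counted by strand. A fit of those 12 alone held 1 glucose and 1 glucose-deficient library per isolate. In unstranded libraries, reads of overlapping genes on opposite strands cannot be told apart.

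All 10 genes were transcribed in every library, with the smallest value being 85 counts. By the median over the 16 libraries the order was *cdc13* (102 CPM per kb), *cdc2* (85.4), *rum1* (54.4), *cdr2* (49.0), *cig1* (38.7), *wee1* (23.7), *cig2* (22.1), *cdc25* (15.3), *cdc18* (14.2) and *puc1* (9.04). Some neighbours in that order were not separated, while *cdc2* exceeded *rum1* in 15 of 16 libraries and *cdr2* exceeded *cig1* in 14. *cdc13* exceeded *cdc2* in 12 of 16 libraries, *rum1* exceeded *cdr2* in 5 and *wee1* exceeded *cig2* in 6, and the ranks of *rum1* and *cdr2* and of *cdc25* and *cdc18* exchanged without the TMM factors. The 4 libraries in which *cdc13* was below *cdc2*, *cig1* below *wee1* and *cdc18* below *puc1* were in each case the 4 glucose-starved libraries. Between the libraries, *cig2* varied 14.1-fold, *cdc25* 7.76-fold, *cdc18* 6.63-fold and *cdc2* 2.25-fold. The standard deviation of the 8 group means on the log2 scale was 1.18 for *cig2*, at percentile 91.3 of the 5073 tested protein-coding genes, and 0.30 for *cdc2*, at percentile 25.1.

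**Figure D1:**
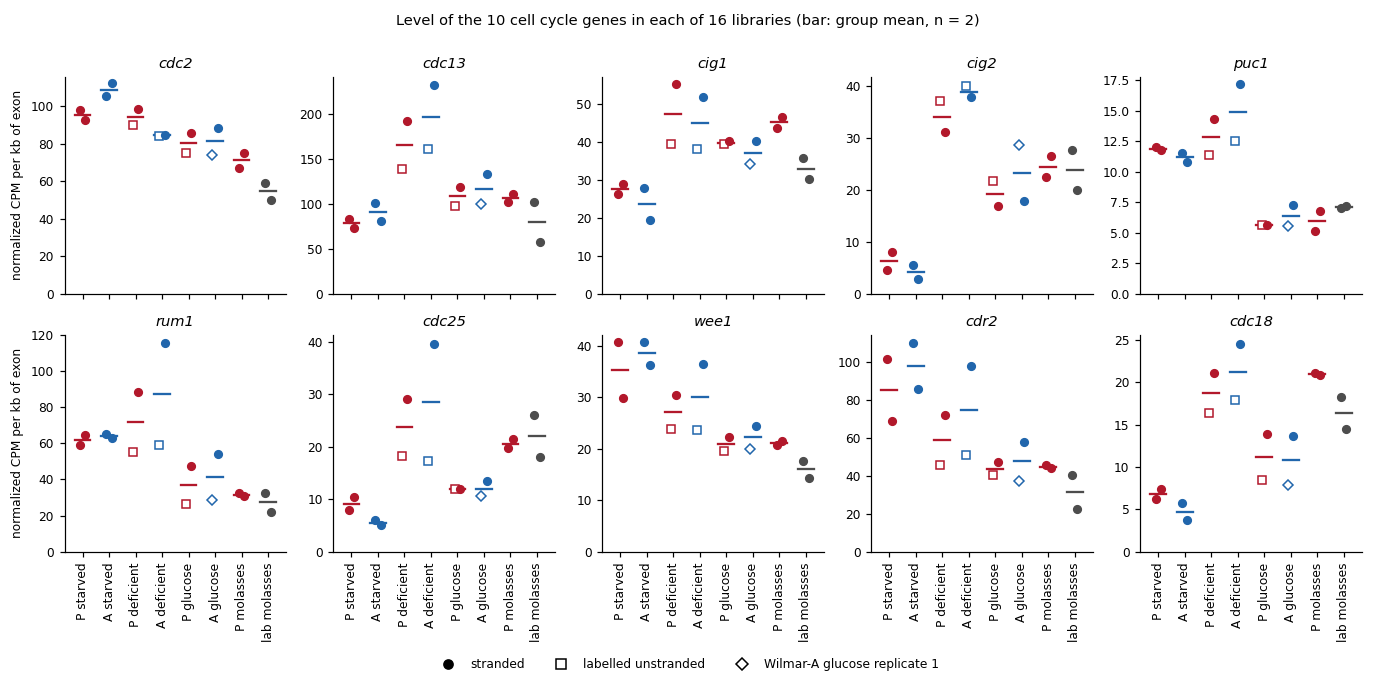
Level of each of the 10 genes (CPM per kb, linear axis) in the 16 libraries, grouped by strain and medium, with bars at the mean of 2 replicates and open symbols for the libraries labelled unstranded and for Wilmar-A glucose replicate 1. *cig2* lies between 2.84 and 8.10 in the 4 glucose-starved libraries and between 16.9 and 40.0 in the other 12.

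The lowest log2 fold changes in glucose-starved medium were those of the S phase genes *cig2* and *cdc18*. *cig2* (SPAPB2B4.03, chromosome I, 2709731 to 2714162 on the plus strand of ASM294v2, 1 exon) had 4.54 and 8.10 CPM per kb in glucose-starved Wilmar-P, against 21.7 and 16.9 in glucose. In Wilmar-A it had 5.57 and 2.84 CPM per kb in glucose-starved medium, against 28.6 and 17.96 in glucose. The groups did not overlap in either isolate. The log2 fold change was -1.49 (SE 0.39, edgeR adjusted p = 0.0134) in Wilmar-P. In Wilmar-A it was -2.47 (SE 0.38, adjusted p = 0.000604), and the difference of 0.98 between the isolates did not pass the test (SE 0.53, adjusted p = 0.853). The gene stayed called in Wilmar-A when any library was left out, with log2 fold changes between -3.04 and -2.07. In Wilmar-P the call was lost without glucose replicate 2 (adjusted p = 0.103) or without glucose-starved replicate 1 (adjusted p = 0.0891).

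Library strand bears on the counts of *cig2*, since 1954 of its bases are overlapped by the antisense RNA SPNCRNA.846 and 1459 by the protein-coding gene SPAPB2B4.04c on the opposite strand. SPNCRNA.846 had 1059 to 1761 counts in the 4 libraries with a high non-coding share and 5 to 70 in the other 12. SPAPB2B4.04c had 5346 to 11176 counts in the glucose-starved libraries, all of which were counted by strand. In a fit of the 12 libraries counted by strand alone, the glucose group of each isolate held 1 library. The log2 fold changes of *cig2* in starvation were then -1.39 in Wilmar-P and -2.05 in Wilmar-A.

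*cdc18* (SPBC14C8.07c, chromosome II, 2215955 to 2218031 on the minus strand, 1 exon) was next. It had 6.24 and 7.37 CPM per kb in glucose-starved Wilmar-P, against 8.41 and 13.9 in glucose, and 5.79 and 3.70 in glucose-starved Wilmar-A, against 7.92 and 13.7 in glucose. Every starved library was below every glucose library of its isolate, though the 2 glucose libraries differed by more than the nearest gap. By edgeR the log2 fold change was -0.93 (SE 0.31, adjusted p = 0.0370) in Wilmar-P, short of the fold threshold, and -1.18 (SE 0.29, adjusted p = 0.00842) in Wilmar-A, where *cdc18* was called. That call was lost without glucose replicate 2 (-0.74, adjusted p = 0.05003) or without glucose-starved replicate 2 (-0.90, adjusted p = 0.0794). The non-coding RNA SPNCRNA.1495 overlaps 771 bases of *cdc18*. Among the 12 libraries counted by strand, with 1 glucose library per isolate, *cdc18* had -0.998 in Wilmar-P and -1.48 in Wilmar-A. Across the 8 group means the log2 levels of *cig2* and *cdc18* had a Pearson correlation of 0.94, and *cdc18* and *cdc25* one of 0.98. These are descriptions over 8 groups that differ in library type.

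The cyclin gene *cig1* (SPCC4E9.02, chromosome III, 1227174 to 1229303, plus strand) moved less. It had 26.3 and 28.9 CPM per kb in glucose-starved Wilmar-P, against 39.4 and 40.1 in glucose, and 27.7 and 19.5 in glucose-starved Wilmar-A, against 34.1 and 40.1 in glucose. Its log2 fold changes of -0.69 (SE 0.23, adjusted p = 0.0350) and -0.65 (SE 0.21, adjusted p = 0.0252) passed the adjusted p but not the fold threshold. Over the 26 alternatives *cig1* passed the adjusted p in 14 for Wilmar-P and in 21 for Wilmar-A. The mitotic cyclin gene *cdc13* (SPBC582.03, chromosome II, 420076 to 423276, plus strand, 2 exons) had 83.6 and 73.4 CPM per kb in glucose-starved Wilmar-P, against 97.9 and 119 in glucose, and 100.4 and 80.7 in glucose-starved Wilmar-A, against 100.1 and 133 in glucose. Its log2 fold changes were -0.67 (SE 0.30, adjusted p = 0.106) and -0.37 (SE 0.27, adjusted p = 0.289), neither past the test, and in Wilmar-A the groups overlapped.

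*cig2*, *cdc18* and *cig1* share a promoter motif. Since *cig2* and *cdc18* are textbook MBF targets, their matches could be foreseen and are no separate finding. The MBF core motif ACGCG, searched on both strands, occurred in the 250 bases upstream of the RefSeq gene start (ASM294v3) in these 3 genes and in none of the other 7. It was found 6 times for *cdc18*, 5 times for *cig2* and 3 times for *cig1*, in which ACGCGT was read on both strands and counts as 2 overlapping matches. Of 5112 promoters of that length, 9.47% held ACGCG at least 1 time and 3.29% held it 2 or more times. In *cdc18* and *cig2* the matches clustered near the start. Their first bases lay between 43 and 132 bases upstream in *cdc18*, and 4 of the 5 matches in *cig2* between 51 and 70. In *cig1* they lay at 210, 94 and 93 bases, the last 2 being the overlapping matches. The 3 sequences are shown so that the matches can be read, 5′ to 3′ on the strand of the gene. ACGCG and its reverse complement CGCGT are in capitals. They lie at chrI:2709532-2709781 (plus strand) for *cig2*, chrII:2217985-2218234 (minus strand) for *cdc18* and chrIII:1226976-1227225 (plus strand) for *cig1*.
cig2: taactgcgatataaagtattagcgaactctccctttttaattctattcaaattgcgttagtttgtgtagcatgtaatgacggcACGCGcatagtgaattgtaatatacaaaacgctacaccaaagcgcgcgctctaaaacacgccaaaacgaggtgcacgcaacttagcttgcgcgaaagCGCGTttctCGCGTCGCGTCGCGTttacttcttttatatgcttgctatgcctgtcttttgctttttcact
cdc18: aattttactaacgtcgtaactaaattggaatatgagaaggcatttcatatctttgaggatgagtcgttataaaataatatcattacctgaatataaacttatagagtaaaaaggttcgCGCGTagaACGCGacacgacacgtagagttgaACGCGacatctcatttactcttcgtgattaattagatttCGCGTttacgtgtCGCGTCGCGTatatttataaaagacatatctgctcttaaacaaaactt
cig1: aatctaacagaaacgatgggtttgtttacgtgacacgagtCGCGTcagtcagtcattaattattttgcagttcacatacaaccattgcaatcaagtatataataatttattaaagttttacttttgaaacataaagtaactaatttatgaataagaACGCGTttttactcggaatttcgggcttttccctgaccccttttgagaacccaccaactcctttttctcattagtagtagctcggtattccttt

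The forkhead motif GTAAACA, present in 14.8% of all promoters, occurred 2 times upstream of *cdc13* and 1 time upstream of *cig1*. A match is a stretch of letters and was not tested as a binding site. *cdc25* fell in starvation in Wilmar-A and has no ACGCG match in this window. The gene models in the deposited table are longer than those of RefSeq by 1093 bases for *puc1* and 183 bases for *cdc25*, so the window searched for these genes may lie within the counted gene, and nothing follows for the bases upstream of it.

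In the size control pair, starvation gave the mitotic activator *cdc25* negative and its antagonist *wee1* positive log2 fold changes. In the main fit these passed the adjusted p in Wilmar-A only. *cdc25* (SPAC24H6.05, chromosome I, 479228 to 482556, minus strand, 2 exons) had 7.90 and 10.4 CPM per kb in glucose-starved Wilmar-P, against 11.9 and 11.9 in glucose, and 6.02 and 5.10 in glucose-starved Wilmar-A, against 10.7 and 13.4 in glucose. The fold change on the log2 scale was -0.72 (SE 0.32, adjusted p = 0.102) in Wilmar-P and -1.11 (SE 0.29, adjusted p = 0.0105) in Wilmar-A, where it was called. The call in Wilmar-A was lost without glucose replicate 2 (-0.94, adjusted p = 0.0326) or glucose-starved replicate 2 (-0.998, adjusted p = 0.0800). *wee1* (SPCC18B5.03, chromosome III, 721788 to 725835, plus strand, 1 exon) had the opposite sign. Its levels were 40.7 and 29.9 CPM per kb in glucose-starved Wilmar-P, against 19.6 and 22.2 in glucose, and 40.8 and 36.2 in glucose-starved Wilmar-A, against 19.9 and 24.4 in glucose. Its log2 fold change was 0.56 (SE 0.23, adjusted p = 0.0809) in Wilmar-P and 0.80 (SE 0.21, adjusted p = 0.0110) in Wilmar-A, the second passing the adjusted p but not the fold threshold. With Wilmar-A glucose replicate 1 fitted as unstranded, *wee1* passed the adjusted p in both isolates. It had 0.58 (edgeR adjusted p = 0.0399) in Wilmar-P and 0.62 (adjusted p = 0.0294) in Wilmar-A. In that fit *cdc25* in Wilmar-P had -0.68 (adjusted p = 0.0709). Over the 26 alternatives *wee1* passed the adjusted p in 3 for Wilmar-P and in 22 for Wilmar-A. No annotated gene overlaps *cdc25* or *wee1*. Among the 12 libraries counted by strand, with 1 glucose library per isolate, *cdc25* had -0.34 in starved Wilmar-P and -1.23 in starved Wilmar-A. In that fit *wee1* had 0.71 in Wilmar-P and 0.69 in Wilmar-A.

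The ratio of the *cdc25* level to the *wee1* level within a library does not depend on the scaling between libraries. It was 0.194 and 0.349 in glucose-starved Wilmar-P and 0.148 and 0.141 in glucose-starved Wilmar-A. It was 0.768 and 0.955 in glucose-deficient Wilmar-P, 0.731 and 1.09 in glucose-deficient Wilmar-A, 0.609 and 0.536 in glucose for Wilmar-P and 0.535 and 0.548 in glucose for Wilmar-A. On molasses it was 0.950 and 0.9997 in Wilmar-P, against 1.47 and 1.26 in laboratory *S. pombe*. The 4 starved libraries were the lowest of the 16 and both laboratory libraries the highest. The ratio was chosen after the levels had been seen and was not tested. It compares transcripts, and says nothing of protein or of cell size, which were not measured in these files.

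**Figure D2:**
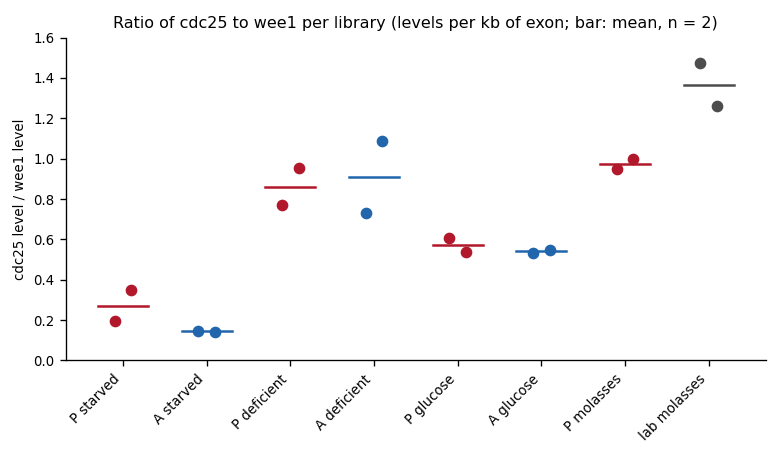
Ratio of the *cdc25* to the *wee1* level (both in CPM per kb) in each library, with bars at the mean of 2 replicates, on a linear axis from 0. Starved libraries lie between 0.141 and 0.349, and those of laboratory *S. pombe* on molasses at 1.47 and 1.26.

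*cdr2* (SPAC57A10.02, chromosome I, 1364749 to 1367968, plus strand, 1 exon), whose product restrains Wee1, also had higher levels in starvation. It had 102 and 68.7 CPM per kb in glucose-starved Wilmar-P, against 40.5 and 47.1 in glucose, and 110 and 85.8 in glucose-starved Wilmar-A, against 37.4 and 57.9 in glucose. The log2 fold change was 0.65 (SE 0.37, adjusted p = 0.198) in Wilmar-P and 1.04 (SE 0.33, adjusted p = 0.0257) in Wilmar-A, where it was called just past the fold threshold. This call was the least stable among the starvation calls. Among the 12 libraries counted by strand, with 1 glucose library per isolate, the log2 fold change in Wilmar-A was 0.79, below the fold threshold. The call was lost when Wilmar-A glucose replicate 1 was fitted as unstranded (0.77, adjusted p = 0.0537) and without the strandedness term (1.04, adjusted p = 0.0688). It was also lost without Wilmar-A glucose replicate 1 (0.75, adjusted p = 0.161), glucose-starved replicate 1 (0.85, adjusted p = 0.130) or glucose-starved replicate 2 (1.20, adjusted p = 0.0524). Among all tested protein-coding genes the one whose 8 group means followed those of *wee1* most closely was *cdr2*, and the one nearest to *cdr2* was *wee1* (Pearson r = 0.998).

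In the main fit the G1 cyclin gene *puc1* rose in starvation by just less than the fold threshold, and the G1 inhibitor gene *rum1* did not pass the test. *puc1* (SPBC19F5.01c, chromosome II, 3699198 to 3702782, minus strand, 2 exons) had 11.998 and 11.7 CPM per kb in glucose-starved Wilmar-P, against 5.60 and 5.66 in glucose, and 11.5 and 10.8 in glucose-starved Wilmar-A, against 5.55 and 7.25 in glucose. Every starved library of *puc1* was above every glucose library. *puc1* overlaps SPBP8B7.31 by 149 bases and the non-coding RNAs SPNCRNA.428 and SPNCRNA.1631 by 280 and 263. The log2 fold changes of 0.94 (SE 0.22, adjusted p = 0.00787) and 0.81 (SE 0.20, adjusted p = 0.00871) passed the adjusted p and fell short of the fold threshold. Over the 26 alternatives the adjusted p passed in 25 for Wilmar-P and in 24 for Wilmar-A. Among the 12 libraries counted by strand, with 1 glucose library per isolate, *puc1* had 1.10 in Wilmar-P and 0.66 in Wilmar-A. With a replicate block it had 1.004 and 0.82. *rum1* (SPBC32F12.09, chromosome II, 2799685 to 2801917, plus strand, 1 exon) had 58.8 and 64.7 CPM per kb in glucose-starved Wilmar-P, against 26.3 and 47.4 in glucose, and 64.9 and 63.0 in glucose-starved Wilmar-A, against 28.5 and 53.9 in glucose. The 2 starved libraries differed 1.10-fold in Wilmar-P and 1.03-fold in Wilmar-A, while the glucose libraries differed 1.80-fold and 1.89-fold. The log2 fold changes of 0.39 (SE 0.30, adjusted p = 0.352) and 0.63 (SE 0.28, adjusted p = 0.0817) did not pass the test.

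The kinase gene *cdc2* (SPBC11B10.09, chromosome II, 1500197 to 1502095, plus strand, 6 exons) changed little. It had 98.2 and 92.6 CPM per kb in glucose-starved Wilmar-P, against 75.1 and 85.8 in glucose, and 105.3 and 112.7 in glucose-starved Wilmar-A, against 74.2 and 88.6 in glucose. The log2 fold changes were 0.19 (SE 0.18, adjusted p = 0.464) and 0.42 (SE 0.17, adjusted p = 0.0640), with 95% confidence intervals from -0.24 to 0.63 and from 0.02 to 0.83. An antisense RNA, SPNCRNA.1438, covers 602 bases of *cdc2* and had 738 to 841 counts in the 4 libraries with a high non-coding share, against 0 to 17 in the other 12.

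In all, starvation called 1 of the 10 genes in Wilmar-P (*cig2*, lower), where 30% of the tested protein-coding genes were called. In Wilmar-A it called 4 of 10 (*cig2*, *cdc18* and *cdc25* lower, *cdr2* higher), where 34.8% were called. In neither isolate did the share of the 10 genes stand well above that of the genome. The levels of the groups did not overlap for 10 genes in Wilmar-P and 9 in Wilmar-A, against 70.6% and 75.7% of all protein-coding genes. DESeq2's Wald test called 1 and 4 as well. None of the 10 responses to starvation was called different between the isolates, where 0% of protein-coding genes were, with edgeR adjusted p-values from 0.853 to 1. At an unadjusted p below 0.05 the count was 0 of 10, against 3.43% of protein-coding genes, and DESeq2 called 0. In bulk RNA, fewer cells in a given cell cycle phase and less RNA per cell cannot be told apart.

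**Figure D3:**
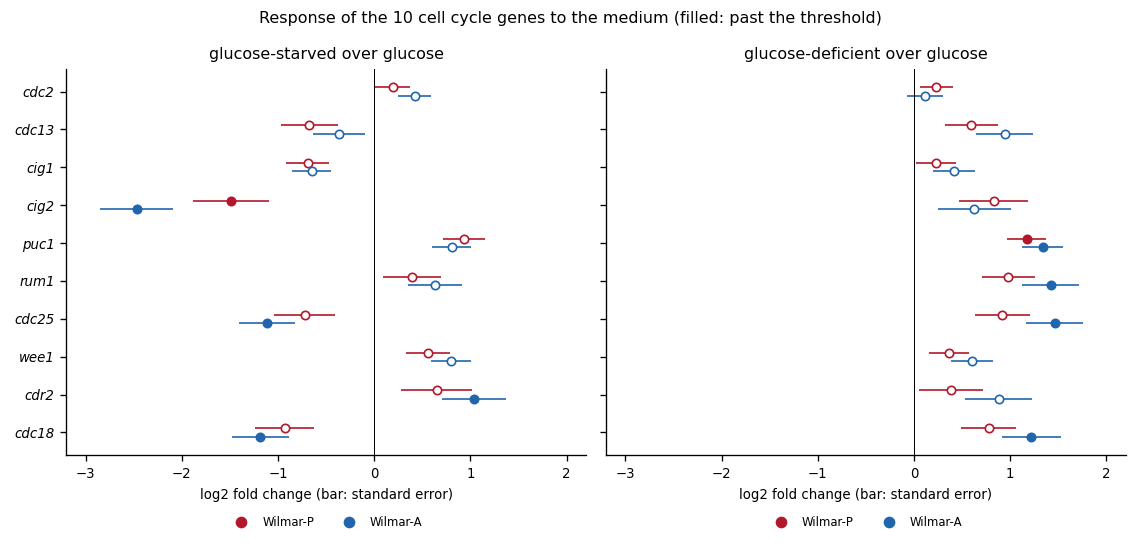
Log2 fold change with its standard error for the 10 genes in glucose-starved (left) and glucose-deficient medium (right) over glucose, in Wilmar-P and Wilmar-A, with filled symbols for genes past both thresholds. *cig2* is lowest in starvation at -1.49 and -2.47, and in the fit plotted all 10 genes lie above 0 in glucose-deficient medium in both isolates.

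A little glucose gave another pattern. With 0.1% glucose added to the glycerol, all 10 genes had a positive log2 fold change over glucose in both isolates, with 3 exceptions near 0 among the alternatives. *cdc2* in Wilmar-A had -0.02 among the 12 libraries counted by strand and -0.02 without Wilmar-A glucose replicate 1, and *cig1* in Wilmar-P had -0.0071 without glucose-deficient replicate 2. The 10 genes had a median of 0.69 in Wilmar-P and 0.91 in Wilmar-A, beside medians of 0.07 and 0.05 over all tested protein-coding genes. With Wilmar-A glucose replicate 1 fitted as unstranded, the Wilmar-A values were smaller except for *cig2*, which went from 0.63 to 0.78. *cdc13*, *rum1*, *cdc25* and *cdc18* then had 0.75, 1.08, 1.16 and 1.01 in Wilmar-A, against 0.94, 1.42, 1.46 and 1.22 in the main fit. In Wilmar-P that fit gave them 0.59, 0.98, 0.93 and 0.78. In Wilmar-P 1 gene was called (*puc1*), where 2.42% of protein-coding genes were called, and in Wilmar-A 4 genes were called, all higher (*puc1*, *rum1*, *cdc25* and *cdc18*), where 9.68% were called and 6.45% called higher. The levels did not overlap with glucose for 8 and 6 of the 10 genes, against 49.3% and 47.3% of all protein-coding genes. In both isolates the deficient group held 1 unstranded and 1 stranded library.

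*puc1* had 11.3 and 14.3 CPM per kb in glucose-deficient Wilmar-P, against 5.60 and 5.66 in glucose, and 12.6 and 17.2 in glucose-deficient Wilmar-A, against 5.55 and 7.25 in glucose. Every deficient library was above every glucose library. By edgeR the log2 fold change was 1.17 (SE 0.20, adjusted p = 0.0139) in Wilmar-P and 1.34 (SE 0.22, adjusted p = 0.00813) in Wilmar-A. Among the 12 libraries counted by strand, with 1 deficient and 1 glucose library per isolate, the values were 1.35 and 1.29. In Wilmar-P the call was lost without glucose-deficient replicate 1, glucose-deficient replicate 2 or glucose replicate 2. Each of these fits left 1 library in a group.

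*rum1* had 54.9 and 88.5 CPM per kb in glucose-deficient Wilmar-P, against 26.3 and 47.4 in glucose, and 59.3 and 115 in glucose-deficient Wilmar-A, against 28.5 and 53.9 in glucose. The lower of the 2 libraries in each of these groups was replicate 1. The fold change on the log2 scale was 0.98 (SE 0.28, adjusted p = 0.106) in Wilmar-P and 1.42 (SE 0.30, adjusted p = 0.0193) in Wilmar-A. When Wilmar-A glucose replicate 1 was fitted as unstranded, the values were 0.98 (adjusted p = 0.0102) and 1.08 (adjusted p = 0.00478).

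*cdc25* had 18.3 and 29.1 CPM per kb in glucose-deficient Wilmar-P, against 11.9 and 11.9 in glucose, and 17.3 and 39.6 in glucose-deficient Wilmar-A, against 10.7 and 13.4 in glucose. The Wilmar-A deficient libraries differed 2.29-fold, the widest replicate gap of *cdc25*. The log2 fold change was 0.92 (SE 0.29, adjusted p = 0.128) in Wilmar-P and 1.46 (SE 0.30, adjusted p = 0.0175) in Wilmar-A. In the fit of the 12 libraries counted by strand the Wilmar-A value was 1.61. That value set only glucose-deficient replicate 2 (39.6 CPM per kb) against only glucose replicate 2 (13.4).

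*cdc18* had 16.3 and 21.1 CPM per kb in glucose-deficient Wilmar-P, against 8.41 and 13.9 in glucose, and 17.9 and 24.6 in glucose-deficient Wilmar-A, against 7.92 and 13.7 in glucose. The log2 fold change was 0.78 (SE 0.29, adjusted p = 0.185) in Wilmar-P and 1.22 (SE 0.31, adjusted p = 0.0334) in Wilmar-A. All 4 calls in Wilmar-A were lost without Wilmar-A glucose replicate 1, with adjusted p-values of 0.0534 for *puc1*, 0.0823 for *rum1*, 0.106 for *cdc25* and 0.169 for *cdc18*. They were lost again without Wilmar-A glucose-deficient replicate 2, at adjusted p-values of 0.463 to 0.470, and 2 of the 4 were left without Wilmar-P glucose-deficient replicate 2.

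The other 6 genes did not pass the test in glucose-deficient medium. *cig2* had its highest levels here, at 37.1 and 31.2 CPM per kb in Wilmar-P and 40.0 and 37.9 in Wilmar-A, with log2 fold changes over glucose of 0.83 (SE 0.36, adjusted p = 0.259) and 0.63 (SE 0.38, adjusted p = 0.267). *cdc13* had 139 and 192 CPM per kb in Wilmar-P and 161 and 233 in Wilmar-A, with log2 fold changes of 0.59 (SE 0.28, adjusted p = 0.286) and 0.94 (SE 0.29, adjusted p = 0.0549). *cdr2* had 45.9 and 72.0 CPM per kb in Wilmar-P and 51.0 and 97.9 in Wilmar-A, and *wee1* had 23.8 and 30.4 in Wilmar-P and 23.7 and 36.5 in Wilmar-A. Both overlapped with glucose in Wilmar-A, and in Wilmar-P *cdr2* did. *cig1* had 39.5 and 55.3 CPM per kb in Wilmar-P and 38.0 and 51.8 in Wilmar-A, and *cdc2* had 89.98 and 98.7 in Wilmar-P and 84.4 and 85.0 in Wilmar-A. No response to glucose deficiency was called different between the isolates (edgeR adjusted p = 0.999 for each of the 10 genes). At an unadjusted p below 0.05 the count was 0 of 10, against 2.44% of protein-coding genes, and DESeq2 called 0.

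Glucose-starved and glucose-deficient medium were not tested against each other, and their levels can be set side by side. For 4 of the 10 genes the 4 starved libraries lay below all 12 others, as for 17% of protein-coding genes, narrowly so for *cig1*, *cdc25* and *cdc18*. The highest starved level of *cig1* was 28.9 CPM per kb, against a lowest level of 30.1 on molasses. *cig2* had 2.84 to 8.10 CPM per kb against 31.2 to 40.0 in glucose-deficient libraries, *cdc25* had 5.10 to 10.4 against 17.3 to 39.6, *cdc18* had 3.70 to 7.37 against 16.3 to 24.6 and *cig1* had 19.5 to 28.9 against 38.0 to 55.3. *puc1*, in contrast, had 10.8 to 11.998 CPM per kb in starved and 11.3 to 17.2 in deficient libraries, both above the 5.55 to 7.25 of glucose and the 5.18 to 7.16 of molasses.

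Replicates of a group did not scatter evenly around their mean. In Wilmar-A glucose-deficient cells the level was lower in replicate 1, the unstranded library, for 9 of 10 genes, by up to 2.29-fold, and in Wilmar-P glucose-deficient cells for 9 of 10, by up to 1.61-fold. In glucose it was lower in replicate 1 for 9 genes in Wilmar-A and 8 in Wilmar-P. *cig2* was higher in replicate 1 in all 4 of these groups. Pairs of libraries counted by strand also differed, with a largest gap of 1.79-fold in starved Wilmar-P and 1.96-fold in starved Wilmar-A, both for *cig2*. On molasses the gaps reached 1.30-fold in Wilmar-P and 1.80-fold in laboratory *S. pombe*, where replicate 1 was the lower library for 1 of 10 genes. The part of library type in these gaps was not tested.

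No gene of the 10 was called different between the production isolate and its ancestor. Between Wilmar-P and Wilmar-A, 0 of the 10 genes were called in glucose-starved medium, where 0.118% of protein-coding genes were called, 0 in glucose-deficient medium (0.0788%) and 0 in glucose (0.0197%), by edgeR and by DESeq2. At an unadjusted p below 0.05 the counts were 1, 0 and 0, against 5.14%, 3.02% and 5.74% of protein-coding genes. That gene was *cdc25* in starvation, with 7.90 and 10.4 CPM per kb in Wilmar-P and 6.02 and 5.10 in Wilmar-A (log2 difference 0.72, SE 0.29, edgeR adjusted p = 0.886). The 95% confidence intervals of the 10 differences ran from -0.98 (*cdr2*) to 1.45 (*cig2*) in starvation, from -1.09 (*cdr2*) to 0.65 (*cig2*) in glucose-deficient medium and from -1.32 (*cig2*) to 1.08 (*cdc25*) in glucose. Differences within these intervals could not be resolved with 2 libraries per group. The levels of the isolates did not overlap for 4 genes in starvation, 2 in glucose-deficient medium and 0 in glucose, against 38.9%, 24.1% and 17.8% of all protein-coding genes.

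On molasses Wilmar-P was set against laboratory *S. pombe*, and 0 of the 10 genes were called where 2.29% of protein-coding genes were. *cdc2* came closest, with 67.3 and 75.3 CPM per kb in Wilmar-P, against 59.3 and 50.0 in laboratory *S. pombe* (log2 fold change 0.38, SE 0.17, edgeR adjusted p = 0.313), the only gene of the 10 with an unadjusted p below 0.05, against 14.4% of protein-coding genes. DESeq2 called 0 as well. *cig1* had 43.6 and 46.5 CPM per kb in Wilmar-P, against 35.7 and 30.1 in laboratory *S. pombe* (0.45, SE 0.21, adjusted p = 0.318). *wee1* had 20.7 and 21.5, against 17.6 and 14.3 (0.40, SE 0.21, adjusted p = 0.376), and *cdr2* had 45.5 and 44.1, against 40.5 and 22.5 (0.51, SE 0.33, adjusted p = 0.486). Of the 10 log2 fold changes 8 were positive, with *puc1* (-0.25) and *cdc25* (-0.09) the exceptions, beside 54.6% positive and a median of 0.05 over all protein-coding genes. The levels did not overlap for 6 genes, against 51% of protein-coding genes. These levels depend on the TMM factors, 0.884 and 0.820 in Wilmar-P and 1.003 and 1.219 in laboratory *S. pombe*. Without them *cdc2* had 59.5 and 61.8, against 59.5 and 61.0, and *wee1* 18.3 and 17.7, against 17.7 and 17.4. Both then overlapped, while *cig1* (38.6 and 38.1, against 35.8 and 36.7) and *puc1* (4.58 and 5.53, against 7.04 and 8.73) did not. Fold changes and their signs were not tested without these factors. The intervals ran from -0.81 (*cig2*) to 1.29 (*cdr2*). Both sequence differences between the strains and expression enter these values, and they cannot be told apart here.

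Within Wilmar-P, molasses against glucose called 0 of the 10 genes by edgeR and by DESeq2, where 1.24% of protein-coding genes were called. Of the 10 genes, *cdc18* alone had an unadjusted p below 0.05, against 12.6% of protein-coding genes. The levels did not overlap for 4 genes, against 57.5% of protein-coding genes. *cdc18* had 21.1 and 20.8 CPM per kb on molasses, against 8.41 and 13.9 in glucose (log2 fold change 0.69, SE 0.31, edgeR adjusted p = 0.375). *cdc25* had 19.7 and 21.5 CPM per kb on molasses, against 11.9 and 11.9 in glucose (0.45, SE 0.32, adjusted p = 0.605). *rum1* had 32.3 and 30.7 CPM per kb on molasses, against 26.3 and 47.4 in glucose (-0.58, SE 0.30, adjusted p = 0.460). The labels give a wash and a shift for the glucose libraries and not for the molasses libraries, so medium and handling cannot be told apart.

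**Figure D4:**
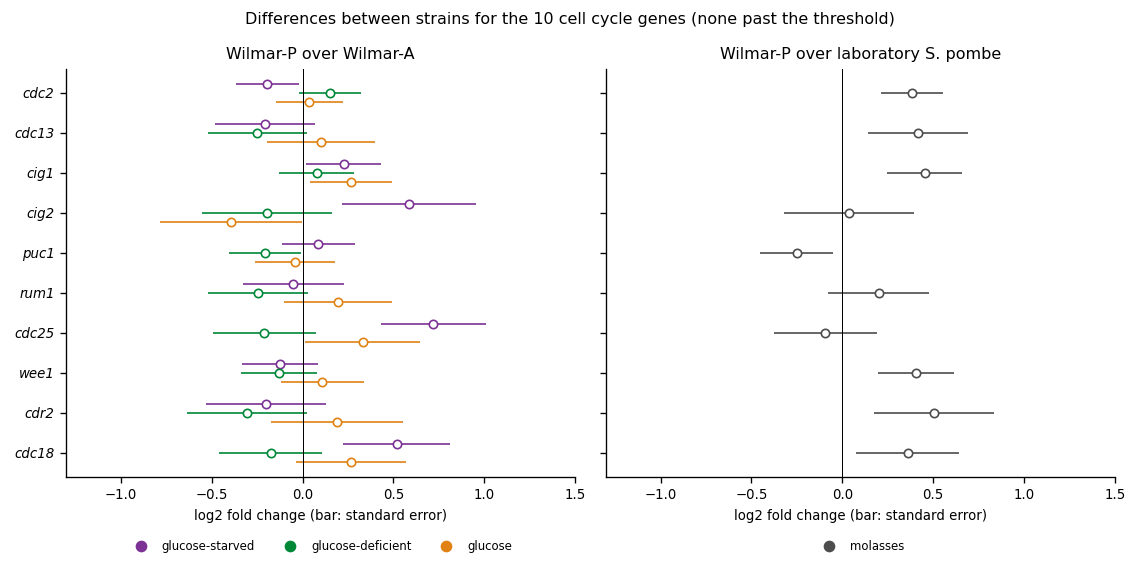
Log2 fold change with its standard error for the 10 genes, for Wilmar-P over Wilmar-A in glucose-starved, glucose-deficient and glucose medium (left) and for Wilmar-P over laboratory *S. pombe* on molasses (right), with open symbols because none was called. The largest isolate difference is that of *cdc25* in starvation at 0.72, and 8 of the 10 genes lie above 0 on molasses.

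Companion genes of the same pathways, from lists drawn up with earlier results known, place the 10 genes in the wider cell cycle programme. They were tested in the main fit only, which kept the stranded label of Wilmar-A glucose replicate 1. By its counts that library was like an unstranded one. Among 11 other MBF-dependent G1/S genes, starvation called 3 lower in Wilmar-P and 4 lower in Wilmar-A and none higher, against 30% and 34.8% of all protein-coding genes called in either direction. The list had a median log2 fold change of -0.71 and -0.81 beside -0.03 and -0.11 over all protein-coding genes. *mik1*, a kinase that like Wee1 inhibits Cdc2, had log2 fold changes of -3.35 in Wilmar-P and -3.25 in Wilmar-A. *pol1* (DNA polymerase alpha) had -2.1002 and -1.71, and *cdt1* (origin licensing) had -1.34 and -1.45. *mrc1*, a replication checkpoint mediator, had -0.97 in Wilmar-P, short of the fold threshold, and -1.16 in Wilmar-A, where it was called. In glucose-deficient medium 1 of the 11 was called higher in Wilmar-P (*cdt2*, 1.29) and 4 in Wilmar-A (*cdc22* 1.80, *rad21* 1.35, *mik1* 1.22 and *cdt1* 1.06), against 2.42% and 9.68% of all protein-coding genes. ACGCG occurred upstream of 9 of these 11 genes, against 9.47% of all promoters. It occurred upstream of 2 of 6 genes for MBF and its regulators, 2 of 17 mitosis and septation genes with a window and 0 of 13 size and mitotic entry regulators, and the list of 11 was itself drawn up for dependence on MBF.

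Of 6 genes for MBF and its regulators, starvation called 1 higher and 1 lower in each isolate, against 30% and 34.8% of all protein-coding genes called. *res2*, an MBF subunit, had a log2 fold change of 2.12 in Wilmar-P and 2.13 in Wilmar-A, and *rep2*, an MBF activator that works with Res2, had -1.66 and -1.52. The other 4 were not called. None of the 6 was called in glucose-deficient medium.

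Of 18 mitosis and septation genes, starvation called 10 lower and 2 higher in Wilmar-P and 9 lower and 2 higher in Wilmar-A, against 30% and 34.8% of all protein-coding genes called. The medians were -1.07 and -1.01. *eng1*, an endoglucanase of cell separation, had log2 fold changes of -4.396 in Wilmar-P and -3.805 in Wilmar-A. *agn1*, an alpha-glucanase of cell separation, had -2.93 and -1.89, and *cdc15*, a component of the division ring, had -2.84 and -2.46. In glucose-deficient medium 2 of the 18 were called higher in Wilmar-P and 7 in Wilmar-A, among them *slp1*, an activator of the anaphase-promoting complex (1.77 and 2.81). The shares over all protein-coding genes were 2.42% and 9.68%, and none of the 18 was called lower.

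Of 13 further size and mitotic entry regulators, starvation called 4 lower in Wilmar-P and 1 lower in Wilmar-A, against 30% and 34.8% of all protein-coding genes called. *blt1*, a component of the cortical nodes that hold Cdr2, had -1.09 in Wilmar-P and -1.05 in Wilmar-A. *nif1*, an inhibitor of the Cdr1 kinase, had -1.13 in Wilmar-P, *suc1*, which binds Cdc2, had -1.05, and *pom1*, a kinase that inhibits Cdr2, had -1.01, none of them called in Wilmar-A. In glucose-deficient medium *mcs6*, the catalytic subunit of a kinase that activates Cdc2, was the 1 gene called in each isolate (1.24 and 1.38), against 2.42% and 9.68% of all protein-coding genes. No gene of the 4 lists was called between Wilmar-P and Wilmar-A in any medium or on molasses against laboratory *S. pombe*.

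**Figure D5:**
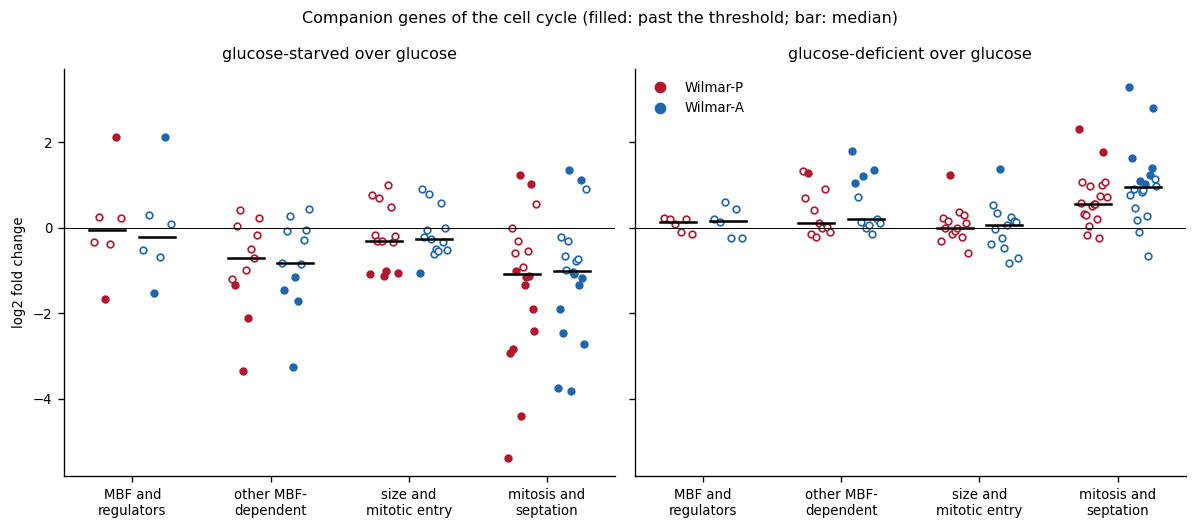
Log2 fold changes of the 6, 11, 13 and 18 companion genes in glucose-starved (left) and glucose-deficient medium (right) over glucose, in Wilmar-P and Wilmar-A, with bars at the median of each list and filled symbols for called genes. Mitosis and septation genes have medians of -1.07 and -1.01 in starvation.

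For each of the 10 genes the protein-coding gene with the most similar 8 group means was also found, as a description with no test. *cig2* was nearest to *cdc23*, a replication factor gene (r = 0.990), *cdc2* to SPBC651.07 (0.990), *cdc13* to *lcf2* (0.985), *cig1* to *sly1* (0.984), *puc1* to SPAC10F6.17c (0.982) and *rum1* to *cpp1* (0.994). *cdc25* and *cdc18* shared the same nearest gene, SPAC607.06c (0.989 and 0.988). Among the pairs of the 10 genes, *puc1* and *rum1* had r = 0.93, *cig1* and *cig2* 0.93 and *cdc2* and *wee1* 0.92, whereas *cig2* and *wee1* had -0.62, the lowest of the 45 pairs.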

How the data were processed

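RNA-seq reads were processed by the authors, who trimmed adapters, aligned reads to the *S. pombe* reference genome (ASM294v2) with TopHat2 2.1.1 and counted them per gene with featureCounts 1.5.2, by strand for stranded libraries and for every gene a read overlapped. The deposited values are raw counts of 7019 genes in 16 libraries. Every column was used.

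edgeR 4.0.16 (R 4.3.3) was run with TMM normalization, its expression filter and a quasi-likelihood fit with 8 groups and the labelled strandedness, leaving 7 residual degrees of freedom. Confidence intervals are 95%. Strandedness was also a factor in the authors' own DESeq2 model, and DESeq2 1.42.0 was run here as 1 of the alternatives. The others were other size factors, filters, library types and thresholds, a replicate block and each library left out. Shares over the genome use 5073 protein-coding genes. RefSeq (ASM294v3) gave symbols for 6845 genes and promoter sequence, and gene coordinates are those of the deposited table. The named genes are the 10 genes, up to 4 called genes of each companion list taken by fold change, and the gene most similar to each of the 10. For 1 companion gene, values are not reported here. Genes and lists were chosen with earlier results of these data known. The model was tested on simulated data. Figures were drawn with matplotlib 3.10.9.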

Additional observations from a re-analysis of the deposited data

Results flagged for a closer look

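*cdc2* was picked out because the difference between the isolates had opposite directions in 2 media. In glucose-starved medium both Wilmar-P libraries (98.2 and 92.6 CPM per kb) were below both Wilmar-A libraries (105.3 and 112.7), and in glucose-deficient medium both Wilmar-P libraries (89.98 and 98.7) were above both Wilmar-A libraries (84.4 and 85.0). The log2 isolate difference in starvation minus that in glucose deficiency was -0.346 (SE 0.24, unadjusted p = 0.182, adjusted p = 1 by edgeR), and did not pass the test.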

How the results depend on the processing

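Over 26 alternatives and the 110 values of the 10 genes, 2712 of 2860 values kept their direction and their side of the thresholds, 39 lost a call, 17 gained one, 92 uncalled values changed sign and 0 called values reversed. For starvation in Wilmar-P, where 1 gene was called, 2 were called without the strandedness term, 2 among the 12 libraries counted by strand, 2 with a replicate block, 2 with that block and Wilmar-A glucose replicate 1 fitted as unstranded, and 4 with no fold threshold. Leaving out each library gave 0 to 3 (0 without Wilmar-P glucose-starved replicate 1, 3 without Wilmar-P glucose replicate 1). For starvation in Wilmar-A, 7 genes rather than 4 were called with no fold threshold, and leaving out each library gave 1 to 4 (1 without Wilmar-A glucose-starved replicate 2). For glucose deficiency in Wilmar-P, 0 rather than 1 were called by strand, and leaving out each library gave 0 to 1. In Wilmar-A, 1 rather than 4 were called without the strandedness term and 1 by strand, and leaving out each library gave 0 to 6 (0 without Wilmar-A glucose replicate 1 or glucose-deficient replicate 2, 6 without Wilmar-A glucose replicate 2). The cause was not tested, other than that those fits have fewer libraries or no library term. The fit by strand held 1 glucose and 1 glucose-deficient library per isolate. Replicate numbers made only 2 pairs per comparison. Replicate differences correlated at 0.82 and 0.88 in the comparisons of glucose deficiency, at 0.03 and 0.11 in those of starvation, between the isolates at 0.92 in glucose, 0.94 in glucose deficiency and 0.32 in starvation, and at 0.06 and -0.03 in those of molasses. The replicate block changed the calls of *puc1* in starved Wilmar-P (1.004, adjusted p = 0.00787), *cdr2* in starved Wilmar-A (0.999, adjusted p = 0.0322) and *cdc18* in deficient Wilmar-A (1.21, adjusted p = 0.0643). Over all protein-coding genes, glucose deficiency called 491 in Wilmar-A, against 62 without the strandedness term, 133 by strand and 279 with the block, and 123 in Wilmar-P, against 60, 95 and 98, with 240 by DESeq2 and 237 with Wilmar-A glucose replicate 1 fitted as unstranded. No count of the 10 genes was below 85, and the 2 libraries per group limit the precision.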
